A study of Mus musculus with 6 samples.

Results

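The Hsp70 chaperones and small heat shock proteins were examined as 10 genes, namely Hspa8, Hspa1a, Hspa1b, Hspa4, Hspa5, Hspa9, Hsph1, Dnajb1, Hspb1 and Cryab, of 18193 genes with a probe set of their own on the array. All 29 probe sets whose single platform symbol is one of these genes were used, and 0 probe sets with several symbols held one of them. Cochlear lateral wall, the outer wall of the cochlear duct with the stria vascularis and spiral ligament, was microdissected from CBA/CaJ mice aged 1.5 years (OldAdult, called old here) and from CBA/CaJ mice aged 1 to 3 months (YoungAdult, called young here). There were 3 old and 3 young samples, each on a 1-colour Affymetrix array, from mice bred in-house in low noise, with no treatment named in the labels. The labels give both sexes for the study but no sex per sample. Young replicate 2 had little signal for Xist, which coats the silenced X chromosome of females, and the highest signals of 3 Y-linked genes, while the other 5 arrays had signals for Xist and these genes together. The labels do not say how many animals gave a sample, so the spread among arrays may be partly technical, and whole tissue cannot tell fewer cells of a type from less RNA per cell. Values are log2 signals, differences are old minus young with the limma standard error, and means carry ± SD with n = 3 arrays. The family was chosen by gene symbol, but it was selected on earlier results of the old against young contrast, in which the probe sets of Hspa8 disagreed. The age differences of the 10 genes are therefore given as descriptions, without p-values, and "passed" refers to an adjusted p of 0.05 in the limma fit across the array.

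Hsp70 proteins bind stretches of unfolded protein and release them in a cycle driven by ATP. J-domain proteins such as Dnajb1 bring clients and start ATP hydrolysis, and nucleotide exchange factors such as Hsph1 and Hspa4 reset the cycle. Small heat shock proteins such as Hspb1 and Cryab bind unfolding proteins without ATP and hold them for refolding. Hspa1a and Hspa1b are the strongly stress-inducible genes, switched on by heat shock factor at arrays of GAA units in alternating orientation, while Hspa5 is induced by the unfolded protein response of the endoplasmic reticulum. In the cochlea, heat shock proteins are known for their induction after noise, heat and ototoxic drugs.

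The 120 bases before the start site are shown for Hspa1a, Hspa1b, Hspb1 and Hsph1, picked because they were highest on young replicate 2. They are also shown for Hspa5, which belongs to another stress pathway. The brightest Hsph1 probe set was highest there by little, at 11.56 against 11.53 on young replicate 1. Hspa4 1416146_at and Hspa9 1418503_at were also highest on young replicate 2, and sequences of these genes are not shown. Any link of the motifs to that array was not tested. Motif matches are given only for the genes shown, so they do not compare genes high on that array with the other members. Sequences are those of RefSeq for GRCm38.p6, which holds a window of 300 bases around the start for 7 of the 10 genes. Capitals mark GAANNTTC or TTCNNGAA, pairs of heat shock factor units, in the first 4 genes, and CCAAT followed after 9 bases of any kind by CCACG, the endoplasmic reticulum stress response element, in Hspa5. They lie at chr17:34972157-34972276 (minus strand, Hspa1a), chr17:34959239-34959358 (minus strand, Hspa1b), chr5:135887799-135887918 (plus strand, Hspb1), chr5:149636337-149636456 (minus strand, first of 2 start sites of Hsph1) and chr2:34771970-34772089 (plus strand, Hspa5).
Hspa1a: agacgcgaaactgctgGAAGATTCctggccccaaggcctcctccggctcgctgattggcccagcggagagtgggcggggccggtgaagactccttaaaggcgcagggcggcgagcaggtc
Hspa1b: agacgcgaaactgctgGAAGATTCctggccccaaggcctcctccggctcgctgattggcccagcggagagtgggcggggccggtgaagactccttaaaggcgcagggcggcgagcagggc
Hspb1: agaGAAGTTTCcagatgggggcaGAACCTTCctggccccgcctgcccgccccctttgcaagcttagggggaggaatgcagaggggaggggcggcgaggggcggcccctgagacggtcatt
Hsph1: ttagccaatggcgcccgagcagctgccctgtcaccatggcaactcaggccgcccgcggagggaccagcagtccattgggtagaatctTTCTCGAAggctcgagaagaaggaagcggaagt
Hspa5: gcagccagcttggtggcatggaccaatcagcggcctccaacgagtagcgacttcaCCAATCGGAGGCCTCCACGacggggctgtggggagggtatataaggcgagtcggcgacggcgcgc

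The windows of Hspa1a and Hspa1b differed at 4 of 300 bases, and at 1 of the 120 bases shown. Both held GAANNTTC 104 bases before the start, and Hspb1 held it at 117 and 97 bases. Hsph1 held TTCNNGAA 33 bases before its first start and 3 units in a row after both starts. Along the gene these units read TTCNNGAA, 2 bases of any kind and TTC. The other strand reads GAANNTTC, 2 bases of any kind and GAA. Of 32851 RefSeq windows of this length, searched on both strands, 7.86% held GAANNTTC, 8.52% held TTCNNGAA, and 15.1% held one or the other. The row of 3 units, which contains both shorter motifs, was in 0.603% of windows. The Hspa5 element lay 65 bases before the start, and 0.119% of windows held it. These are matches of letters, not measured binding sites.

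Between ages, 1 of the 29 probe sets passed, a probe set of Hspa8 that was higher in old tissue, against 4.71% of all 45037 probe sets (1.86% higher and 2.84% lower). Taking the brightest probe set of each gene, limma passed 0 of 10 genes, against 4.78% of all genes. At an unadjusted p under 0.05 the count was 3 of 10 genes, against 20.7% of all genes. At the adjusted threshold it was 1 of 10 with an intensity trend and robust variance (6.43% of all genes), with array weights (10.5%) and without young replicate 2 (8.35%), and also with averaged probe sets (4.97%), where the 1 gene was Hspa8. Groups did not overlap for 10 of 29 probe sets, against 23.8% of all probe sets. Old lay entirely above young for 3 of them (12.5% of all probe sets) and entirely below for 7 (11.3% of all). At 1 probe set per gene, groups did not overlap for 3 of 10, against 26.7% of all genes. The median difference was -0.08 over the 29 probe sets and 0.01 over all probe sets. A difference of at least 0.5 in size was found for 3 of 29, the Hspa8 probe set and a pair for Hspa1b, against 4.99% of all.

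**Figure D1:**
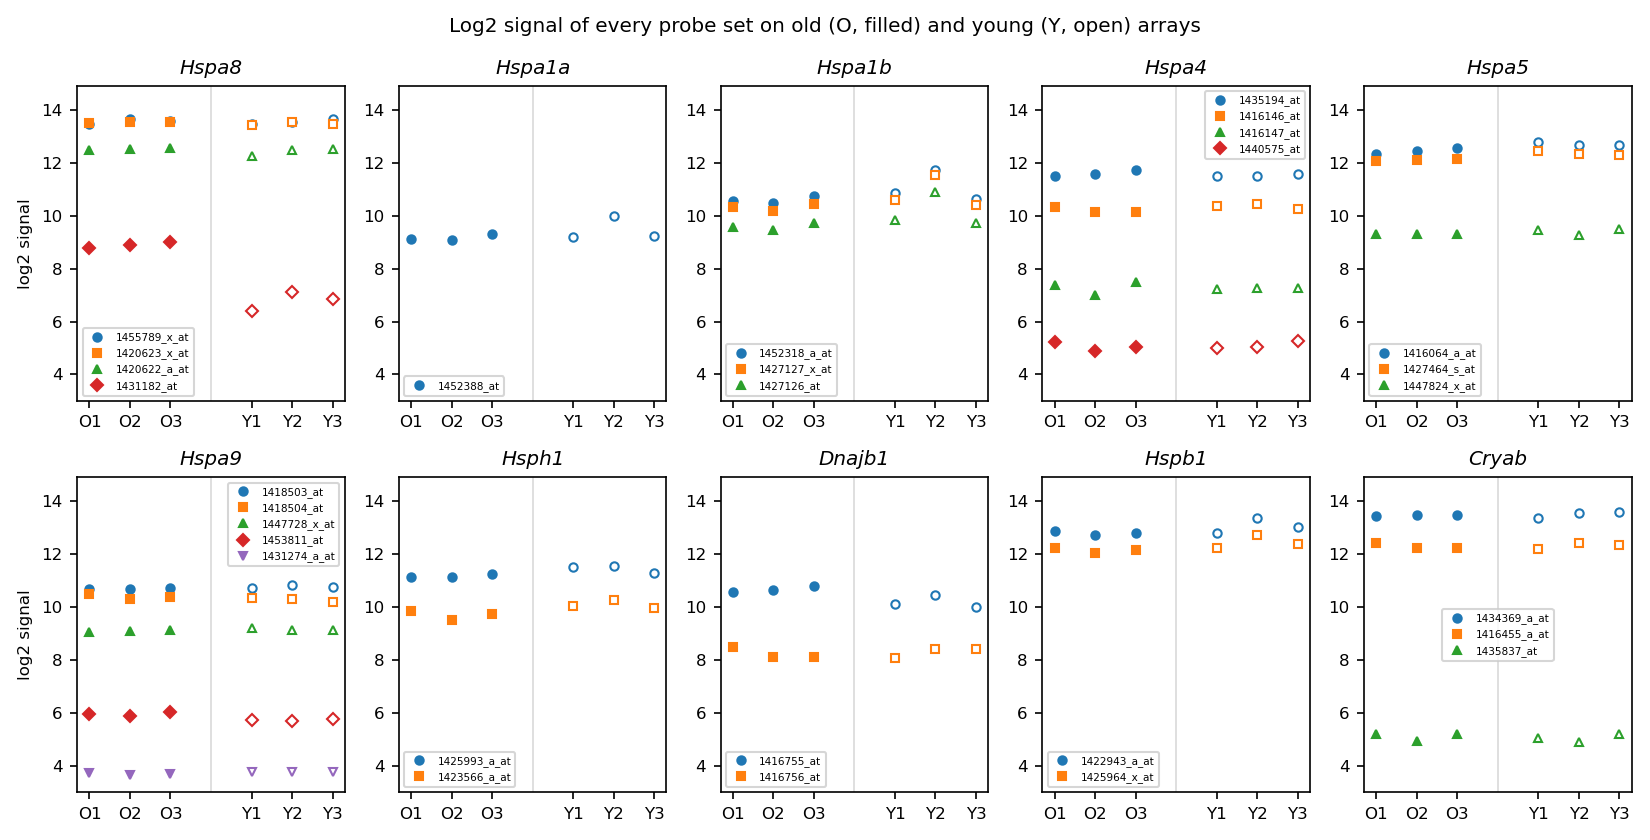
Log2 signal (vertical axis) of each of the 29 probe sets on the 3 old arrays (O1 to O3, filled) and the 3 young arrays (Y1 to Y3, open), 1 panel per gene and 1 marker shape per probe set. Hspa8 1431182_at is between 8.77 and 9.01 on old arrays and between 6.39 and 7.11 on young arrays, and Hspa1a and Hspa1b are highest on young replicate 2.

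Hspa8 encodes Hsc70, the constitutive Hsp70 of the cytosol, which folds new proteins and strips clathrin from vesicles. Its probe sets disagreed. Probe set 1431182_at had 8.77, 8.88 and 9.01 in old tissue, against 6.39, 7.11 and 6.86 in young tissue. The groups were far apart, with a mean of 8.89 ± 0.12 in old and 6.79 ± 0.37 in young, a difference of 2.10 ± 0.17 or 4.29-fold. The other 3 probe sets of Hspa8 showed no such gap. Probe set 1455789_x_at had 13.48, 13.65 and 13.59 in old and 13.48, 13.53 and 13.67 in young tissue, a difference of 0.01 ± 0.09. Probe set 1420623_x_at had 13.51, 13.54 and 13.54 in old and 13.44, 13.54 and 13.47 in young tissue, a difference of 0.05 ± 0.07. Both overlapped between ages. Probe set 1420622_a_at had 12.50, 12.53 and 12.54 in old and 12.25, 12.50 and 12.51 in young tissue, a difference of 0.10 ± 0.09, with young replicate 1 the low array.

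The distance between the highest and the lowest difference of the Hspa8 probe sets was 2.09. Of 9010 genes with more than 1 probe set, 6 had a larger distance, and the median distance was 0.19. This disagreement was known when the family was chosen, so its rank is a description. Hspa8 has 4 probe sets, and the genes compared had any number above 1, although the distance tends to grow with that number. On this array type, identifiers ending in _x_at mark probes that can match other transcripts. Hspa8 has many processed pseudogenes, so its _x_at probe sets may hold signal of other loci, which was not tested. Probe set 1420622_a_at is not an _x_at set, and its difference was 0.10 ± 0.09. Probe set 1431182_at was the dimmest of Hspa8. Its means were 8.89 in old and 6.79 in young tissue, against 12.52 and 12.42 for 1420622_a_at. Identifiers ending in _a_at mark probes shared by transcripts of 1 gene, and those ending in _at alone mark probes designed for 1 transcript. Which transcript each probe set detects was not tested. The mean of the 4 probe sets differed by 0.57 and passed, and the brightest differed by 0.01 and did not, so the age difference of the gene depends on the probe set taken. Without any 1 array, or under another scaling or variance setting, the difference of 1431182_at was 1.90 to 2.26.

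The inducible Hspa1a and Hspa1b were high on 1 young array. Hspa1a probe set 1452388_at had 9.10, 9.07 and 9.29 in old tissue, against 9.20, 9.99 and 9.23 in young tissue. Young replicate 2 stood above the other 5 arrays, which overlapped between ages. The brightest probe set of Hspa1b, 1452318_a_at, had 10.57, 10.47 and 10.75 in old tissue, against 10.84, 11.74 and 10.64 in young tissue. Its probe set 1427127_x_at had 10.34, 10.18 and 10.45 in old and 10.59, 11.54 and 10.42 in young tissue. The same young array was high on both. Probe set 1427126_at had 9.56, 9.45 and 9.72 in old and 9.82, 10.90 and 9.74 in young tissue, and here the groups did not overlap, by 0.02 between old replicate 3 and young replicate 3. The 2 genes are near-identical copies, so the 4 probe sets can share signal and are not separate measurements.

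The differences were -0.32 ± 0.20 for Hspa1a and -0.48 ± 0.25, -0.53 ± 0.25 and -0.58 ± 0.27 for the probe sets of Hspa1b, and none passed. Without young replicate 2 they were -0.06 for Hspa1a and -0.14, -0.18 and -0.20 for Hspa1b. Young replicate 2 exceeded the mean of the other young arrays by 0.78 for Hspa1a and by 1.00, 1.04 and 1.12 for Hspa1b. A gap of at least 0.5 in this direction was found for 2.44% of the 22508 probe sets above the median signal of 6.28, and for 4 of the 25 bright probe sets of the 10 genes, which are these 4. Young replicate 2 was the highest of all 6 arrays for 10 of the 25, against 13.7% of bright probe sets. This array was singled out for its high values of these genes, so both shares are descriptions. The 10 are not separate measurements, since they include the 4 of Hspa1a and Hspa1b and both probe sets of Hspb1 and of Hsph1.

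**Figure D2:**
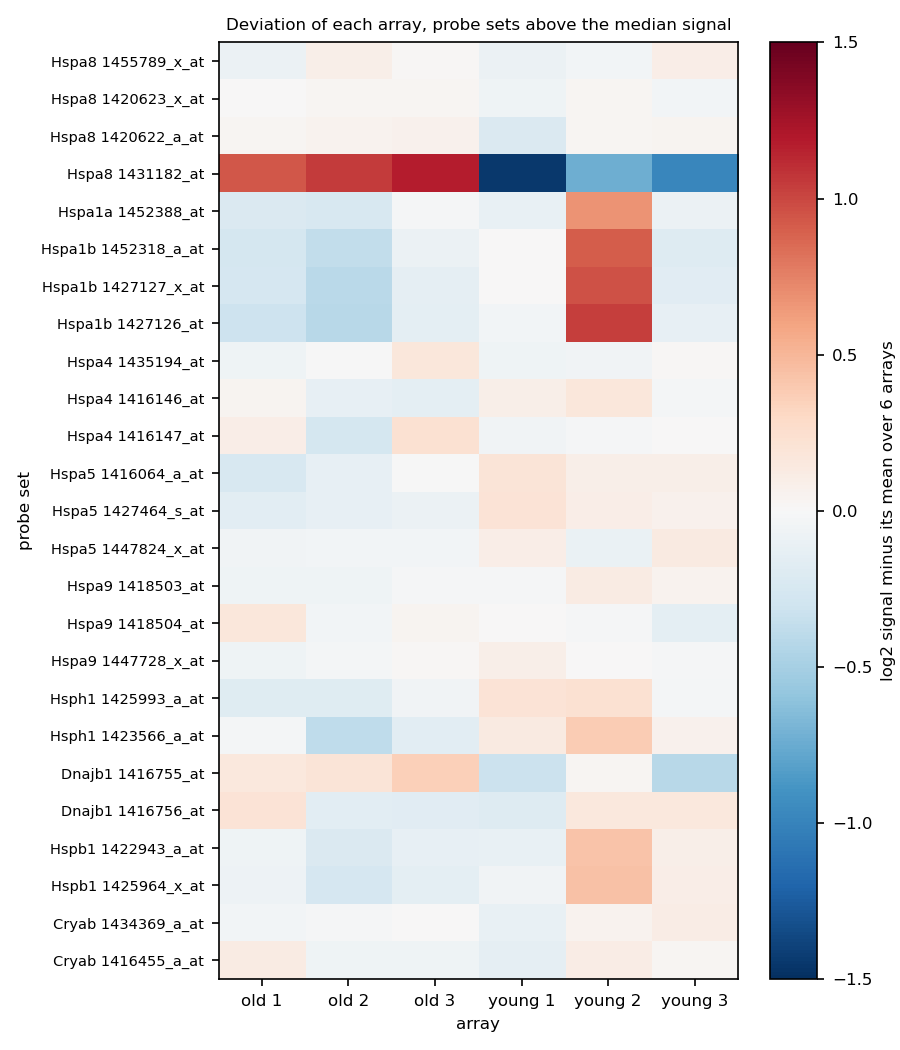
Log2 signal of each array minus the mean of the 6 arrays (colour scale), for the 25 probe sets above the median signal (rows) on old and young arrays (columns). Young replicate 2 is high for Hspa1a, Hspa1b and Hspb1, and Hspa8 1431182_at is high on every old array.

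The small heat shock protein Hspb1, which stabilises actin filaments and holds unfolding proteins, had the same high array. Probe set 1422943_a_at had 12.86, 12.71 and 12.80 in old tissue, against 12.82, 13.36 and 13.02 in young tissue. Probe set 1425964_x_at had 12.22, 12.04 and 12.15 in old tissue, against 12.24, 12.73 and 12.39 in young tissue. The first overlapped between ages through young replicate 1, and the second did not overlap. The differences were -0.28 ± 0.13 and -0.32 ± 0.13, and -0.13 and -0.18 without young replicate 2. Young replicate 2 exceeded the mean of the other young arrays by 0.44 and 0.41.

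Hsph1, the Hsp110 nucleotide exchange factor that also prevents aggregation, was lower on every old array. Its brightest probe set, 1425993_a_at, had 11.15, 11.15 and 11.27 in old tissue, against 11.53, 11.56 and 11.30 in young tissue. Its other probe set, 1423566_a_at, had 9.86, 9.51 and 9.73 in old tissue, against 10.03, 10.27 and 9.96 in young tissue. The groups did not overlap on either, and the smaller gap was 0.03, between old replicate 3 and young replicate 3 on 1425993_a_at. The differences were -0.27 ± 0.09 and -0.39 ± 0.12, and -0.23 and -0.29 without young replicate 2. Neither passed.

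Dnajb1, the Hsp40 J-domain partner of Hsp70 in disaggregation, went the other way on 1 of its 2 probe sets. Probe set 1416755_at had 10.59, 10.63 and 10.79 in old tissue, against 10.11, 10.46 and 10.02 in young tissue. The lowest old array lay above the highest young array, which was young replicate 2, and the difference was 0.47 ± 0.12 or 1.39-fold. Probe set 1416756_at had 8.48, 8.11 and 8.10 in old tissue, against 8.08, 8.43 and 8.43 in young tissue, overlapping between ages with a difference of -0.08 ± 0.14. Neither passed in the fit with all arrays. The first passed without young replicate 2, at 0.60, with array weights, at 0.58, and with an intensity trend and robust variance, at 0.47. The distance of 0.55 between its probe sets was exceeded by 9.62% of genes with more than 1 probe set.

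**Figure D3:**
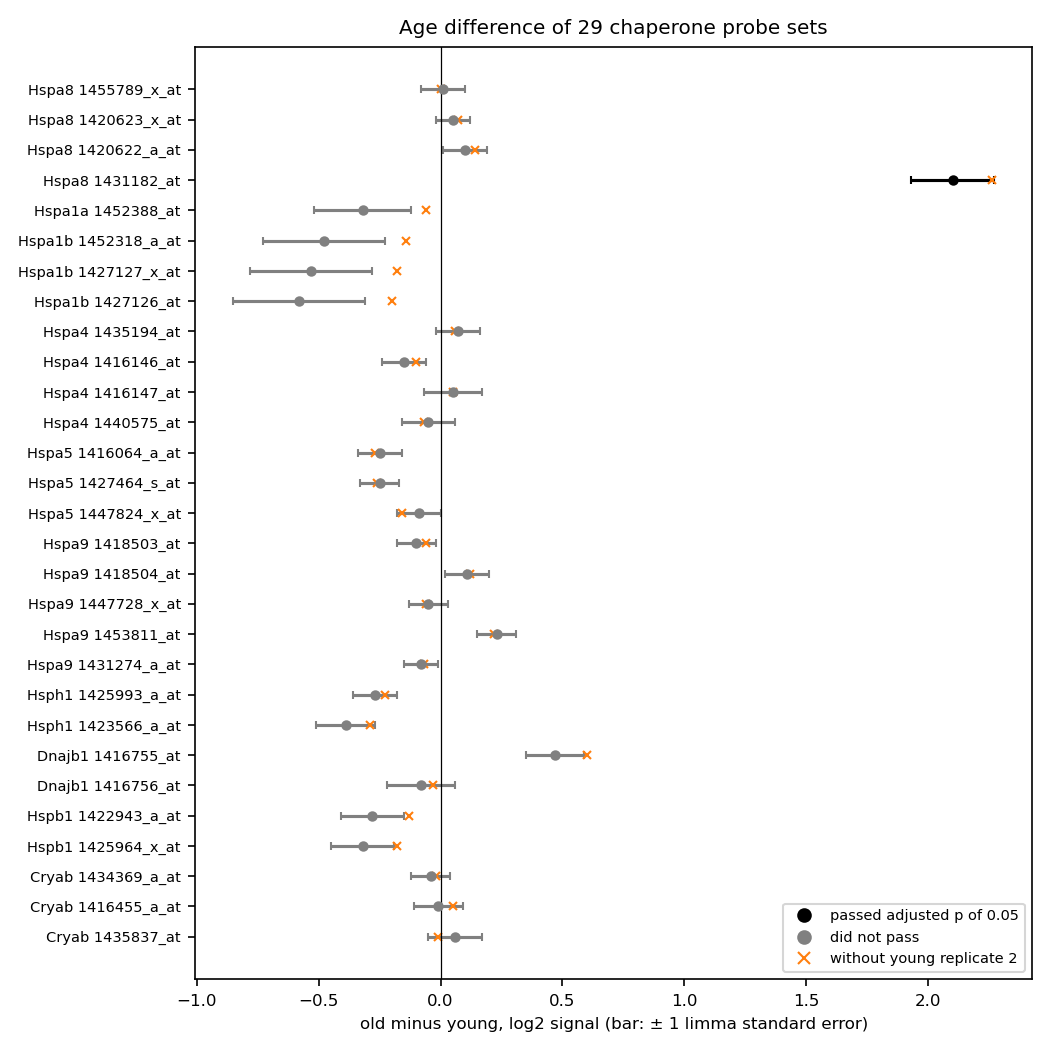
Difference in log2 signal, old minus young (horizontal axis), of the 29 probe sets (vertical axis), with 1 limma standard error as the bar and the value without young replicate 2 as a cross. Hspa8 1431182_at stands at 2.10 while its other probe sets lie between 0.01 and 0.10, and the crosses of Hspa1a and Hspa1b lie nearer to 0.

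Hspa5 encodes BiP, the Hsp70 of the endoplasmic reticulum lumen and a sensor of unfolded protein there. Its brightest probe set, 1416064_a_at, had 12.33, 12.45 and 12.57 in old tissue, against 12.77, 12.66 and 12.66 in young tissue. Probe set 1427464_s_at had 12.07, 12.10 and 12.13 in old tissue, against 12.43, 12.32 and 12.29 in young tissue. All old arrays were below all young arrays on both, with differences of -0.25 ± 0.09 and -0.25 ± 0.08 or 0.843-fold. Probe set 1447824_x_at overlapped, at 9.30 to 9.32 in old and 9.26 to 9.49 in young tissue, with a difference of -0.09 ± 0.09. None of the 3 passed, except 1427464_s_at with an intensity trend and robust variance. Hspa5 was not high on young replicate 2, whose signal minus the mean of the other young arrays was -0.05 on its brightest probe set.

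Hspa9 encodes mortalin, the mitochondrial Hsp70 that pulls imported proteins into the matrix. Its 5 probe sets had differences from -0.10 to 0.23, and none passed. The brightest, 1418503_at, had 10.67, 10.67 and 10.71 in old tissue, against 10.71, 10.85 and 10.78 in young tissue, which meet at 10.71. Probe set 1453811_at had 5.98, 5.88 and 6.05 in old tissue, against 5.73, 5.71 and 5.77 in young tissue, with no overlap, but lies below the median signal of all probe sets. Probe set 1431274_a_at, at 3.65 to 3.74 in old and 3.76 to 3.78 in young tissue, is dimmer still and also did not overlap, in the opposite direction.

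Hspa4, the Apg-2 member of the Hsp110 exchange factors, had 4 probe sets with differences from -0.15 to 0.07. Its brightest, 1435194_at, had 11.50, 11.56 and 11.74 in old tissue, against 11.50, 11.51 and 11.58 in young tissue. Cryab encodes alphaB-crystallin, which guards desmin and other filaments and is abundant in lens and muscle. Its brightest probe set, 1434369_a_at, had 13.45, 13.47 and 13.49 in old tissue, against 13.38, 13.54 and 13.60 in young tissue, a difference of -0.04 ± 0.08. Probe set 1416455_a_at differed by -0.01 ± 0.10 and 1435837_at, which is dim, by 0.06 ± 0.11. The groups overlapped on every probe set of Hspa4 and Cryab.

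The genes that work with these chaperones were counted in 8 lists with 92 different measured genes outside the 10, at the brightest probe set per gene. By limma, 3 rose, 1 fell and 88 did not pass, where 2.45% of all genes rose and 2.33% fell, and the median difference was 0.00. Of 8 other Hsp70 family genes, 1 rose, Hspa2, which had 9.42, 9.95 and 9.67 in old tissue, against 8.74, 9.15 and 8.87 in young tissue (0.76 ± 0.15, limma adjusted p = 0.0295). Hspa2 is best known as the Hsp70 of male germ cells. Of 20 J-domain genes, 1 rose, Dnajc6, which had 8.98, 9.33 and 9.0 in old tissue, against 8.06, 8.24 and 8.08 in young tissue (0.98 ± 0.11, limma adjusted p = 0.00402). Dnajc6 encodes auxilin, the partner of Hsc70 in uncoating clathrin vesicles. Averaged over its 4 probe sets it differed by 0.58 (limma adjusted p = 0.00791). The same averaging also called Dnajc1, a J-domain protein of the endoplasmic reticulum, lower over 6 probe sets (-0.56, limma adjusted p = 0.0142), where its brightest probe set differed by -0.08 ± 0.09.

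Of 17 exchange factors and co-chaperones, 1 rose, the Hsp90 co-chaperone gene Chordc1, which had 11.19, 11.18 and 11.28 in old tissue, against 10.75, 10.87 and 10.46 in young tissue (0.52 ± 0.11, limma adjusted p = 0.0367). Of 20 genes for chaperones of the endoplasmic reticulum and its stress response, 1 fell, the stress transcription factor gene Ddit3 (-0.55 ± 0.11, limma adjusted p = 0.0303). With the mean of its 2 probe sets Ddit3 differed by -0.32 (limma adjusted p = 0.16) and did not pass. The call of Hspa2 was lost without old replicate 2 or 3 or young replicate 1 or 3 (limma adjusted p up to 0.118), as was that of Ddit3 (up to 0.114). That of Chordc1 was lost without any array but young replicate 2 (up to 0.148). That of Dnajc6 was kept without each array.

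Limma passed 0 of 14 Hsp90, Hsp60 and CCT chaperonin genes and 0 of 8 other small heat shock genes. It passed 0 of 5 genes of the heat shock factor list and 0 of 11 mitochondrial chaperone genes. The 5 are Hsf2, Hsf4, Hsf5, Hsbp1 and Hsf2bp, of which only Hsf2 and Hsbp1 lay above the median signal. Hsf1 had no probe set of its own and was not measured. With an intensity trend and robust variance, or with array weights, the counts were also 0 in these 4 lists. With averaged probe sets 1 gene of the first list fell, Hsp90b1, the Hsp90 of the endoplasmic reticulum (-0.38, limma adjusted p = 0.016), whose brightest probe set differed by -0.04 ± 0.08. At an unadjusted p under 0.05 the counts were 0, 1, 2 and 2, against 20.7% of all genes. Hspb8, the small heat shock protein that works with Bag3, had 11.10, 10.90 and 11.02 in old and 11.31, 11.37 and 11.12 in young tissue (-0.26 ± 0.10, limma adjusted p = 0.181), and Hspb7 differed by -0.21 ± 0.14 (limma adjusted p = 0.473). Hsf2, a heat shock factor of development, differed by -0.54 ± 0.20 and Hsf5 by -0.25 ± 0.08 (limma adjusted p = 0.174 and 0.141). Cct4 and Hspa14 differed by 0.18 ± 0.08 and 0.20 ± 0.10 (limma adjusted p = 0.287 and 0.347). Grpel1, the exchange factor of Hspa9, differed by 0.22 ± 0.09, and Clpx, a mitochondrial unfoldase, by -0.26 ± 0.09 (limma adjusted p = 0.209 and 0.176).

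**Figure D4:**
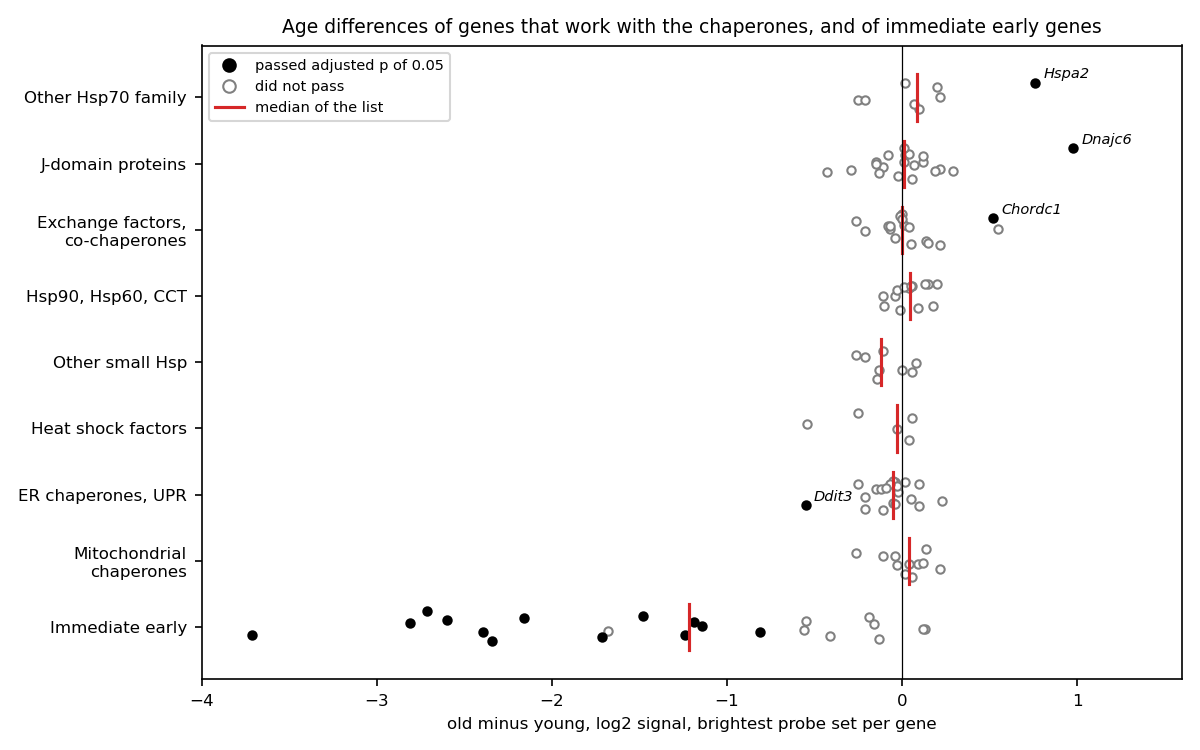
Difference in log2 signal, old minus young (horizontal axis), of the brightest probe set of each gene in 8 chaperone lists and the immediate early list (vertical axis), filled where limma passed an adjusted p of 0.05, with the list median as a bar. Hspa2, Dnajc6 and Chordc1 are the filled genes above 0, Ddit3 is the filled chaperone list gene below 0, and the immediate early median is -1.21.

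Other features of young replicate 2 stand beside its high Hspa1a, Hspa1b and Hspb1 signals. Xist was at 6.06 on this array, against 11.95 to 12.65 on the other 5. The Y-linked Eif2s3y, Kdm5d and Uty were at 10.46, 8.96 and 8.99 on it, against at most 9.71, 8.04 and 8.03 on the others, so its make-up by sex differed from theirs. The other 5 were not all alike. Old replicate 2 had the highest Xist, at 12.65, and the lowest Eif2s3y, Kdm5d and Uty, at 8.97, 7.19 and 7.41. It was also the lowest array for every probe set of Hspa1a, Hspa1b and Hspb1. The summed linear signal of 8 other small heat shock genes was 3350 on young replicate 2, against 2560 to 3180 on the other arrays. That sum is mostly Hspb8, at 11.37 on this array and 10.90 to 11.31 on the others. Only 3 of the 8 genes lay above the median signal. Hspb6 was also highest on young replicate 2, at 8.30, and Hspb7 was lowest, at 5.04. The Hsp90, Hsp60 and CCT list summed to 49300 on it, against 45700 to 47500. The J-domain list had 39300, against 37000 to 39000, and the mitochondrial chaperone list had 17600, against 15900 to 17000. In the other 4 chaperone lists young replicate 2 lay within the other arrays, at 7500 against 6870 to 7530 for other Hsp70 genes and 23800 against 22500 to 24400 for exchange factors and co-chaperones. It had 5980 against 5580 to 6360 for the heat shock factor list and 60100 against 57500 to 60600 for the endoplasmic reticulum list. The sum of the heat shock factor list is mostly Hsbp1, a heat shock factor binding protein, at 12.49 on this array. Hsf2 was highest on young replicate 2, at 7.10 against 5.90 to 6.87, and Hsf4, Hsf5 and Hsf2bp lay below the median signal. Immediate early genes, which respond within minutes to stimulation and handling, ran differently: Fos was at 9.82 on young replicate 2, against 10.56 and 10.62 on the other young arrays. Of 22 immediate early genes 13 fell with age (7 of them kept the call without each array in turn), with a summed signal of 11900 to 13900 in old and 20000 to 31900 in young tissue. The part of these features in the chaperone values was not tested.

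All 14 lateral wall marker genes lay above the median signal. The summed signal of these genes, among them Kcnj10 and Coch, was 142000 to 143000 in old and 141000 to 143000 in young tissue, and limma passed 0 of 14 (2 with an unadjusted p under 0.05, where 20.7% of all genes had one, and 2 at the adjusted threshold with an intensity trend and robust variance). Markers of some other cell types moved with age. Bone genes fell for 3 of 7, with summed signals of 2840 to 3630 in old and 5850 to 7130 in young tissue. That sum is mostly Dmp1, with a mean of 12.25 in young tissue, and Alpl, at 0.32, was the 1 bone gene with a difference above 0. Marrow neutrophil genes fell for 8 of 9, with 768 to 1550 in old and 2300 to 3600 in young tissue. Macrophage genes rose for 2 of 10, with 6940 to 7490 in old and 5700 to 6040 in young tissue. Of the 10, 8 had a difference above 0, and Csf1r and Mrc1 had -0.08 and -0.32. Smooth muscle and pericyte genes fell for 3 of 9, with 8250 to 8730 in old and 9500 to 12000 in young tissue. Of 6 Schwann cell genes 1 rose and 2 fell, with 6510 to 6920 in old and 6760 to 7590 in young tissue, highest on young replicate 2. Of 3 erythroid genes 1 fell, with 147 to 154 in old and 182 to 295 in young tissue. Of the called marker genes, 1 of 3 in bone, 1 of 8 in marrow neutrophils, 1 of 2 in macrophages, 2 of 3 in smooth muscle and pericytes and 0 in Schwann and erythroid cells kept their call without each array in turn. Called marrow neutrophil genes numbered 3 without old replicate 1 or old replicate 3 and 1 without young replicate 3. No marker is at 0, since array signals have a floor, and the part of these cells in the age differences of the chaperones was not tested. Skeletal muscle genes, a possible source of Cryab and Hspb1, summed to 864 to 1220 in old and 880 to 970 in young tissue, with 880 on young replicate 2. Limma passed 0 of 15 skeletal muscle, 0 of 7 melanocyte, 0 of 7 endothelial, 0 of 9 hair cell and neuron and 0 of 4 lens genes, with 1, 2, 2, 0 and 1 at an unadjusted p under 0.05, against 20.7% of all genes. With an intensity trend and robust variance, or with array weights, 1 melanocyte gene passed and none of the others.

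The genes most like the brightest probe sets of 4 members were found by Pearson's r over the 6 arrays, among 11578 genes above the median signal. For Hspa1b they were Gnl3l (0.997), Eif4ebp1 (0.981), Tlk1 (0.981) and Map2k4 (0.976). Without young replicate 2 the last 3 had r of 0.73, 0.85 and 0.838, and Gnl3l 0.987. They spanned 0.14 to 0.31 over the arrays, where Hspa1b spanned 1.27. For Hspb1 they were Prorp (0.987), Fkbp11 (0.987), Ncoa4 (0.986) and Tmem192 (0.981), each with its top value on young replicate 2. For Hspa8 they were Atrn (0.998), Eef2kmt (0.992), Nnt (0.982) and Eif3f (0.98), and for Cryab 2310011J03Rik, Tk2 (each 0.996), Rad54l2 (0.995) and Exoc3l4 (0.986). Hspa8 and Cryab spanned only 0.19 and 0.22, so those likenesses rest on small steps. The highest of 11578 values over 6 arrays are large in any case, and these are descriptions.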

How the data were processed

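The deposited table holds log2 signals with 2 decimals for 45101 probe sets on 6 arrays. Labelling used a 3′ IVT kit, per the labels' protocols, so signals come mainly from 3′ ends. Software listed by the submitters' processing notes was RMA, MAS5 and Affymetrix Expression Console, whose roles and versions are not given in the sources used here. Array medians were 6.26 to 6.30. Scanner files were not used here, so signal over background was not examined. The 64 control probe sets were left out, leaving 45037, of which 34945 had 1 symbol in GEO's platform annotation, 932 several and 9160 were not listed.

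Limma 3.58.1 in R 4.3.3 (lmFit, eBayes) was fitted to the 2 age groups without covariates, with Benjamini-Hochberg adjustment over all probe sets. Calls of list genes use these p-values. A gene is represented by its brightest probe set. The scripts were tested on simulated data. Genes were named by rule: all probe sets of the 10 genes; up to 3 called genes a direction per list, or, with none called, the 2 of smallest p; and the 4 genes most like Hspa8, Hspa1b, Hspb1 and Cryab. For the immediate early list and cell type markers, counts are given in place of all named genes, and Xist, the Y-linked genes, Fos, Kcnj10, Coch, Dnajc1 and Hsp90b1 were named after their values were seen. The members and lists were chosen with earlier results of these data known. Figures were drawn with matplotlib. Precision is limited by having 3 arrays per age.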

Additional observations from a re-analysis of the deposited data

How the results depend on the processing

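The settings tried were array weights, 3 further scalings (cyclic loess, median centring, repeated quantile normalization), an intensity trend with robust variance, bright probe sets only, averaging the probe sets of a gene, a threshold of 0.01, a replicate block, and the omission of each array. The 373 recomputed differences of single chaperone probe sets each moved by less than the spread between replicates. For Hspa1a and Hspa1b that spread includes young replicate 2 itself. The intensity trend, the replicate block and the use of bright probe sets only cannot change a difference. The 1 called value, Hspa8 1431182_at, kept its sign and passed in 13 of 13 settings. Differences near 0 did change sign, as for Hspa4 1416147_at (-0.06 to 0.19) and Hspa8 1455789_x_at (-0.03 to 0.07). Passed probe sets among the 29 numbered 1, but 2 with array weights, 3 with the intensity trend, and 1 to 2 on leaving out an array (2 without young replicate 2). The median difference of the 10 genes was -0.17, and -0.20 to -0.06 on leaving out an array, with -0.06 without young replicate 2. Over the whole array, 2119 probe sets passed, 4480 with array weights, 436 at an adjusted p of 0.01, and 515 to 3393 on leaving out an array. Of 92 list genes 4 passed, and 1 to 7 on leaving out an array, with 1 without old replicate 3, young replicate 1 or young replicate 3, 2 without old replicate 2 and 7 without young replicate 2. With averaged probe sets 5 passed, 3 higher and 2 lower, the lower being Dnajc1 and Hsp90b1 in place of Ddit3. The cause of these shifts was not tested.

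The replicate numbers were not taken to pair the arrays. Deviations of same-numbered arrays correlated at 0.137, 0.0753 and 0.00782, and those of differently numbered arrays at -0.114 to 0.0681. Deviations within a group of 3 arrays cancel out, which ties these values together, so they do not settle whether arrays were paired. With the replicate block, 1932 probe sets passed, 1 of the 29 chaperone probe sets and 3 of 92 list genes, Chordc1 not among them (limma adjusted p = 0.0571).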
